A study of Homo sapiens with 26 samples.

Results

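The 9 genes described here (TH, DDC, DBH, PNMT, GCH1, SLC18A1, SLC18A2, SLC6A2 and MAOA) encode the machinery that makes, stores, takes back up and breaks down catecholamines. The members are the genes with these symbols, and all 9 of the 9 were found among the 26485 genes of both deposited count tables, one for cell culture and one for xenografts. The RNA came from KELLY, an established human neuroblastoma cell line in which MYCN is amplified. Each of 3 KELLY lines carried a doxycycline-inducible vector, labelled F1HUTG, that was either empty (EV) or encoded 1 of 2 RUNX1T1 hairpins, sh4 and shAMB. Cells of every line were exposed for 72 h to doxycycline or to its solvent control, DMSO, with 3 replicates each, for 6 groups and 18 libraries. The other 8 libraries came from subcutaneous KELLY tumors in female NOD SCID gamma mice, hosts that lack T, B and NK cells, and the labels call them Kelly PDX cells. In the labels 4 of these tumors have the genotype WT and control food, and 4 have the genotype RUNX1T1 KO and doxycycline food. The methods describe engrafted cells that carried a hairpin, so the KO label stands for doxycycline-induced knock-down rather than for an edited gene, and doxycycline feeding and hairpin induction cannot be told apart in the tumors, which have no empty-vector group. The paper names the hairpin of the xenografts as its shRNA 1, built on an Ambion siRNA sequence. If shAMB stands for Ambion, which the labels do not state, the tumors carried the shAMB hairpin. Changes shared by shAMB and the tumors would then not come from separate hairpins. The labels number the replicates without naming separate cultures or litters, so p-values measure the spread between these libraries.

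Catecholamines are built in a short linear pathway. Tyrosine hydroxylase (TH) turns tyrosine into L-DOPA, the rate-limiting step, with tetrahydrobiopterin as cofactor, and GTP cyclohydrolase (GCH1) is the first enzyme of that cofactor's synthesis. DOPA decarboxylase (DDC) makes dopamine, dopamine beta-hydroxylase (DBH) makes noradrenaline inside vesicles, and PNMT methylates noradrenaline to adrenaline. The vesicular monoamine transporters SLC18A1 (VMAT1) and SLC18A2 (VMAT2) load the amines into vesicles, the noradrenaline transporter SLC6A2 (NET) takes noradrenaline back up across the plasma membrane, and monoamine oxidase A (MAOA) of the mitochondrial outer membrane degrades it. Neuroblastoma arises from the sympathoadrenal lineage, in which these genes are characteristic, and uptake through SLC6A2 underlies the use of radiolabelled MIBG in this tumor.

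Promoters are shown for every member for which one was available, whatever its expression. Among them DDC and MAOA were lower with either hairpin and in the KO-labelled tumors, while DBH and SLC18A2 were not lower in all of these. A link between the promoters and these changes was not tested. The RefSeq table of promoters (GRCh38.p14, 250 bases before to 50 bases after the start, 300 bases each, 5′ to 3′ on the gene's own strand) held 4 of the 9 members, and TH, PNMT, GCH1, SLC18A1 and SLC6A2 are named only. The windows are chr7:50565356-50565655 on the minus strand for DDC, chrX:43656049-43656348 on the plus strand for MAOA, chr9:133636113-133636412 on the plus strand for DBH and chr10:117240864-117241163 on the plus strand for SLC18A2. The annotated MAOA gene begins at position 43655006, before its window. That window therefore lies inside the gene and shows a start other than the first annotated one. Capitals mark every match, on either strand, to 1 of 7 letter patterns: the E box CANNTG, the E box form that MYC proteins prefer, written CACGTG and itself also a match to the former, the GC box, which is GGGCGG, and the TATA box, searched as TATAAA. The remaining patterns were the cAMP response element TGACGTCA, the EGR1 motif GCGGGGGCG, which can overlap a GC box, and the AP-2 motif GCCNNNGGC.
DDC: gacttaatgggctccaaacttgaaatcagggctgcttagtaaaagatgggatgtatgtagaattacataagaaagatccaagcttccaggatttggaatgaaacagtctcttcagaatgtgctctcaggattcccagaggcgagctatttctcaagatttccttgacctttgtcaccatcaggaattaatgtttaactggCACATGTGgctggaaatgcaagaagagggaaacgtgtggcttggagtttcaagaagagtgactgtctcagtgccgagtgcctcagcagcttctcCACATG
MAOA: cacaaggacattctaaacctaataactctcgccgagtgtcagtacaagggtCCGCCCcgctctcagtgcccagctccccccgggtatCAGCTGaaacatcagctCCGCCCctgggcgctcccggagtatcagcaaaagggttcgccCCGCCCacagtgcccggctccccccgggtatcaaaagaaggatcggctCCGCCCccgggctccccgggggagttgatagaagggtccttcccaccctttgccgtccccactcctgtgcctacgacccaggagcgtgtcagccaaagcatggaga
DBH: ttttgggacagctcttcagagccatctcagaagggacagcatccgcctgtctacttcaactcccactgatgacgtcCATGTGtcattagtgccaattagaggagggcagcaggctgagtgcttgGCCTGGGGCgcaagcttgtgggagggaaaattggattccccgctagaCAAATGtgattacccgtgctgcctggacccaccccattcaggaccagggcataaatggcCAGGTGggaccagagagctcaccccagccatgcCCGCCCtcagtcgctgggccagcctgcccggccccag
SLC18A2: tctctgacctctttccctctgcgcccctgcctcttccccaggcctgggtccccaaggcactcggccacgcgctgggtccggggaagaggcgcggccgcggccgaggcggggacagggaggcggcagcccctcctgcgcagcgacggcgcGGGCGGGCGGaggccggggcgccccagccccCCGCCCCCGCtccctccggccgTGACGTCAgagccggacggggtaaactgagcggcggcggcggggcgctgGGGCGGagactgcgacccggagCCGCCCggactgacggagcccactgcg
The DDC window held 3 CANNTG matches, 2 of them overlapping, and none of the other patterns. MAOA had 4 GGGCGG matches and 1 CANNTG. DBH had 3 CANNTG matches, 1 GGGCGG and 1 GCCNNNGGC. The SLC18A2 window, at 78.7% GC the richest of the 4 (44.3% in DDC, 59.3% in DBH and 63.0% in MAOA), had 5 GGGCGG, 1 TGACGTCA and 1 GCGGGGGCG and no CANNTG. No member window held CACGTG or TATAAA. Of all 27305 promoters in that table, 68.9% held CANNTG, 44.6% GGGCGG, 23.0% GCCNNNGGC, 12% TATAAA, 7.43% CACGTG, 5.02% GCGGGGGCG and 1.98% TGACGTCA, and each such match is a description of the letters only.

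Expected counts per library totalled 35115915 to 54736733 for the cultures and 47346063 to 62378060 for the tumors. RUNX1T1, the targeted gene, lay between 24.3 and 44.1 CPM (counts scaled to library size, with TMM factors) in every library and did not pass the threshold of an adjusted p of 0.05 for doxycycline in EV (log2 fold change -0.16), sh4 (-0.11) or shAMB (0.06), nor in the tumors (-0.23), so its RNA gave no check of the labels. With sh4 it passed as lower under 3 of 14 alternatives, and relative to EV the shAMB effect was higher (0.21, adjusted p = 0.0353), a call lost under most alternatives. The paper reports knock-down at the protein level, by western blot of KELLY cells with either shRNA construct and by staining of KELLY tumors. Protein was not measured in the libraries described here. All 6 noradrenergic neuroblast markers were detected in every group, with summed levels of 2952 to 8847 CPM. Most of that sum was MYCN, whose mean rose from 2192 to 3513 CPM with sh4, from 2128 to 6316 CPM with shAMB and from 2595 to 7157 CPM in the tumors. Erythroid markers summed to at most 0.0250 CPM, adipocyte markers to at most 0.461, endothelial markers to at most 2.25, leukocyte markers to at most 2.60 and Schwann cell markers to at most 6.97. These are human genes, and the processing notes name only a human genome. The sums therefore do not show how many mouse host cells the tumors held. The summed level of the 5 mesenchymal markers went from 121 to 124 CPM up to 173 to 181 CPM with sh4 and from 105 to 115 CPM down to 69.7 to 78.2 CPM with shAMB, and from 59.4 to 73.6 CPM down to 43.0 to 56.9 CPM in the tumors. Of these 5 markers 3 passed as higher and 1 as lower with sh4, 4 as lower with shAMB, and 1 as higher and 3 as lower in the tumors. Fibroblast markers summed to 37.6 to 47.5 against 58.2 to 78.1 CPM with sh4 and to 42.0 to 50.2 against 28.6 to 36.0 CPM with shAMB, and of the 3 tested 2 passed as higher and 1 as lower with sh4, and 1 as higher and 2 as lower with shAMB. Over all genes tested 40.9% passed with sh4, 66.0% with shAMB and 41.1% in the tumors. The part of these cell-state markers in the results was not tested. In bulk RNA, fewer cells of a type and less RNA per cell cannot be told apart.

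A property of the libraries moved TH and DBH by larger amounts than the other members and is given first. The transcripts of TH and DBH are rich in GC, at 65.8% and 62.3%, above 98.1% and 91.5% of the tested cell culture genes that had a GC value, whereas the other tested members lay between 42.4% (SLC18A2) and 53.2% (SLC6A2). For each library a GC contrast was computed as the median log2 deviation of the 1358 most GC-rich tested genes minus that of the 1358 most GC-poor ones (1435 each in the tumors). It spread widely inside groups, for example -0.59, -0.38 and 0.70 in the 3 sh4 doxycycline libraries and 0.83, 0.01, 0.16 and -0.73 in the 4 KO-labelled tumors. TH ordered the libraries of a group exactly as the GC contrast did in 7 of 8 groups, and so did DBH in 7 of 8. GCH1 and SLC18A2 followed that order in 0 of 8 groups, and DDC in 3 of 8. Reversed orders are not counted there. SLC18A2, the most GC-poor of the tested members, ran in exactly reversed order in every culture group, and GCH1 did so in most of them. In the shAMB line the contrast also separated the groups, from -0.86 to -0.43 with DMSO and from 0.20 to 0.81 with doxycycline, so there GC contrast and hairpin induction cannot be told apart. Values with each library's GC trend removed are therefore given beside those of TH and DBH. That removal takes away any shift that GC-rich genes share, whatever its source, and was added after these data had been seen. It also lowered the SD of log2 CPM of SLC18A2 inside culture groups, from 0.0666 to 0.0178.

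**Figure D1:**
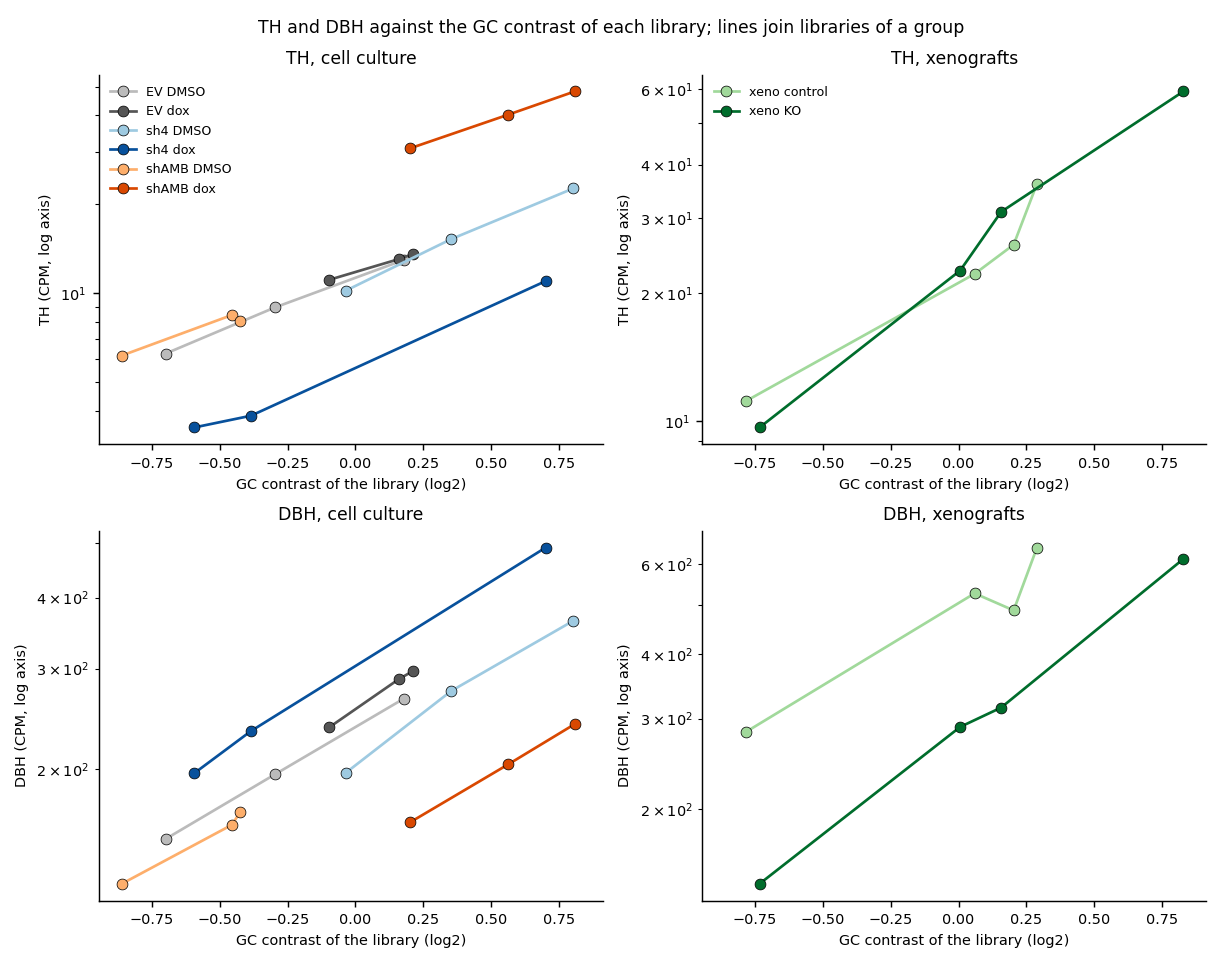
CPM of TH (top) and DBH (bottom, both log axes) against the GC contrast of each library (log2), for cell culture (left) and tumors (right); points are libraries and lines join those of a group. Inside nearly every group both genes climb with the contrast, and the shAMB doxycycline libraries (0.20 to 0.81) lie to the right of the shAMB DMSO libraries (-0.86 to -0.43).

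The members spanned a wide range of levels, compared between genes as CPM per kilobase of the deposited gene length. DDC had the highest mean in 7 of 8 groups, with 120 ± 2.83 CPM per kb (SD, n = 3) in EV with DMSO and 285 ± 31.0 (n = 4) in the control tumors. DBH came above it only in sh4 with doxycycline, at 111 ± 57.9 against 70.0 ± 4.23, where the libraries of both genes overlapped. In EV with DMSO, DBH (73.9 ± 21.1), SLC18A2 (66.9 ± 2.50) and MAOA (64.4 ± 2.05) followed DDC and neighbours among them overlapped, then came SLC6A2 (42.4 ± 0.477) and GCH1 (11.6 ± 0.616). SLC18A1 (5.23 ± 0.273) and TH (5.17 ± 1.86) overlapped near the bottom of that order, so the gene of the rate-limiting enzyme had less RNA per length than those of the 2 enzymes that follow it. PNMT was last in all 8 groups, with 0 to 17 counts in any library, and did not pass the filter on low counts in either table, so that 8 of 9 members were tested. In the tumors, whose table was normalised separately, SLC6A2 had a mean of 16.6 CPM per kb and SLC18A1 of 12.7 ± 1.39 in the control group, against 42.4 and 5.23 in EV with DMSO, values that are set side by side without a test.

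**Figure D2:**
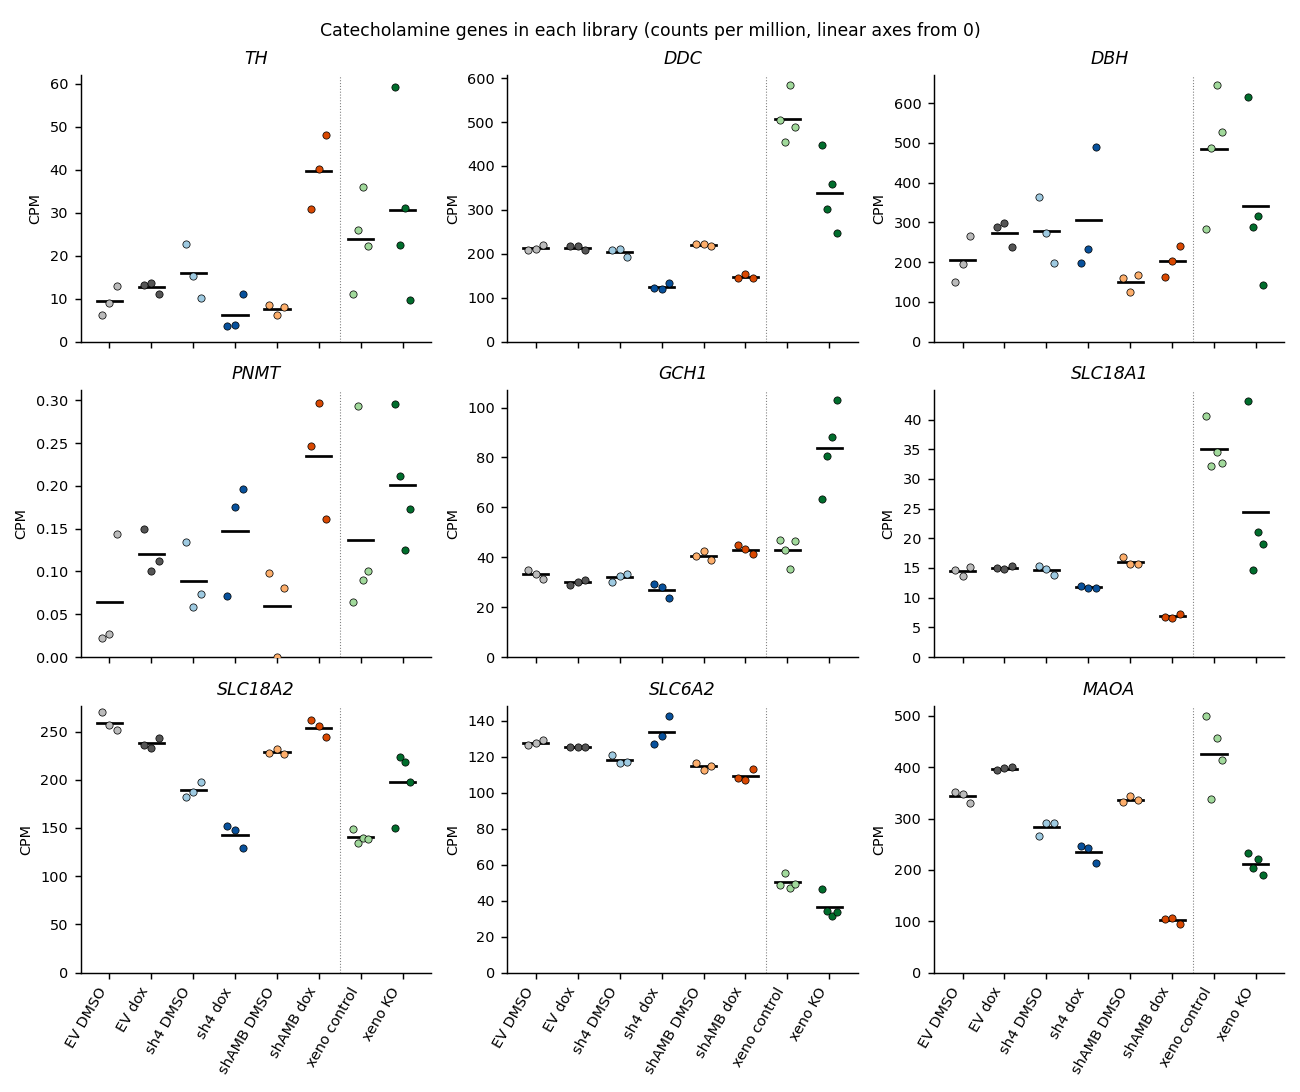
CPM of the 9 members (linear axes from 0) in each of the 26 libraries by group; points are libraries and bars are group means, with a dotted line between cell culture and tumors. MAOA and SLC18A1 are lowest in shAMB with doxycycline, TH is highest there among the cultures, and SLC18A2 separates sh4 from the other lines before induction.

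Doxycycline without a hairpin moved no member past the threshold. In the EV line 0 of 8 members were called (edgeR quasi-likelihood test, adjusted over all genes), against 0.0939% of all 14905 genes tested (0.0134% higher, 0.0805% lower), and DESeq2 and limma on TPM also gave 0 members. At an unadjusted p under 0.05 there were 2 members, SLC18A2 (log2 fold change -0.12) and MAOA (0.21), and 879 genes in all. With the GC trend removed MAOA passed, at 0.27 (adjusted p = 3.07e-05), and the MAOA change with each hairpin is therefore also given relative to EV. With sh4, 7 of 8 members passed, 6 lower and 1 higher, where 40.9% of all genes did (22.9% higher, 18% lower). With shAMB, 5 of 8 passed, 3 lower and 2 higher, where 66.0% of all genes did (37.6% higher, 28.4% lower). In the tumors 5 of 8 passed, 3 lower and 2 higher, where 41.1% of 15960 genes did (21.2% higher, 19.9% lower). The median log2 fold change of the 8 members was -0.30 with sh4, 0.01 with shAMB and -0.49 in the tumors, beside 0.00, 0.10 and 0.02 over all genes tested.

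**Figure D3:**
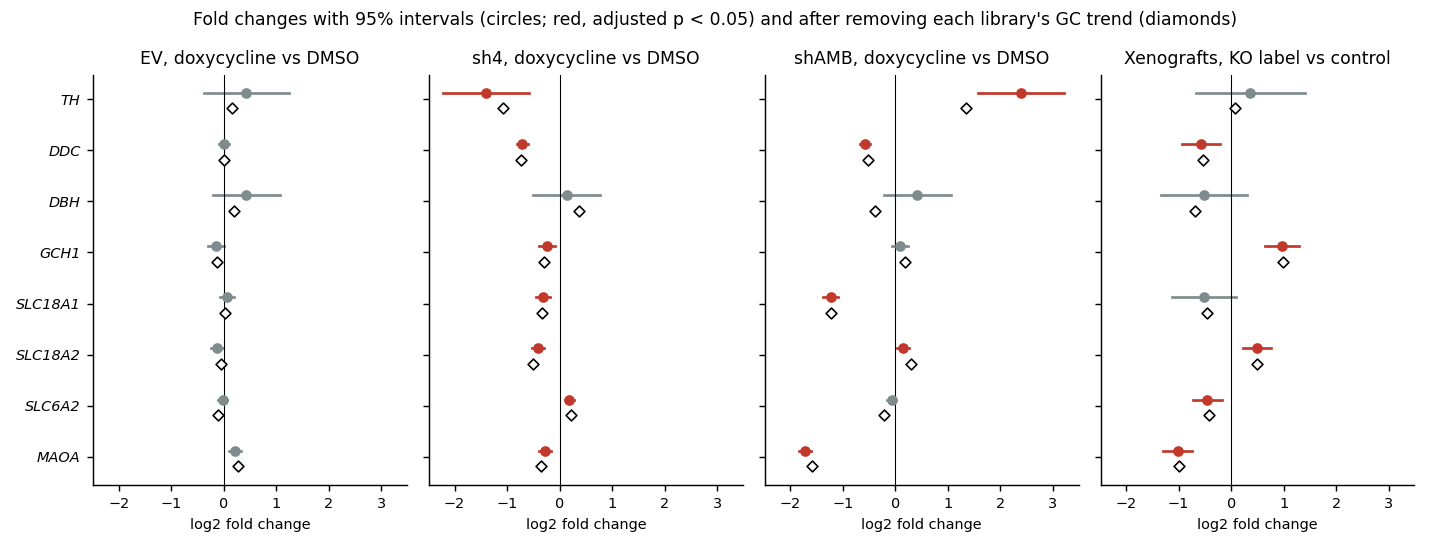
Log2 fold changes (x axis) of the 8 tested members for doxycycline against DMSO in the EV, sh4 and shAMB lines and for KO-labelled against control tumors; circles with bars are edgeR estimates with 95% intervals (red where the adjusted p is under 0.05) and open diamonds the estimates after the GC trend of each library was removed. DDC and MAOA lie below 0 in the last 3 panels, TH changes side between sh4 (-1.40) and shAMB (2.39), and the diamonds depart most from the circles for TH and DBH.

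TH moved in opposite directions with the 2 hairpins. Its levels were 22.6, 15.3 and 10.2 CPM in sh4 with DMSO and 3.52, 3.85 and 11 CPM with doxycycline. All doxycycline libraries except the third lay below the DMSO range, and that library, with the group's highest GC contrast, overlapped it. The fitted change was -1.40 (2.64-fold lower, SE 0.384, adjusted p = 0.00819), and without that library it was -2.12. With shAMB, TH rose from 8.45, 6.16 and 8.08 CPM to 30.9, 40.2 and 48.2 CPM, and the groups did not overlap. The log2 fold change was 2.39 (5.26-fold higher, SE 0.387, adjusted p = 6.01e-05). The effects of the hairpins differed from each other by -3.79 (sh4 minus shAMB, SE 0.544, adjusted p = 2.73e-05). In the EV line TH was at 6.25, 8.96 and 13.0 CPM with DMSO and 13.1, 13.6 and 11.1 CPM with doxycycline, which overlapped (0.43, adjusted p = 0.672), and both hairpins differed from EV, by -1.83 (adjusted p = 0.0167) and 1.97 (adjusted p = 0.00707).

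The size of these TH changes depended on the GC trend, and their direction did not. With the trend removed TH changed by -1.08 with sh4 (adjusted p = 7.34e-07), by 1.34 with shAMB (adjusted p = 1.35e-08) and by 0.16 in EV (adjusted p = 0.691). The sh4 call was lost when only the 6 libraries of that line were fitted (-1.39, adjusted p = 0.0844). In the tumors TH was at 11.1, 25.9, 36.0 and 22.2 CPM in the control group and 59.4, 22.6, 31.0 and 9.67 CPM in the KO-labelled group, which overlapped, and the change of 0.36 (95% interval -0.67 to 1.40, adjusted p = 0.570) became 0.08 with the trend removed (adjusted p = 0.796).

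DDC was lower wherever a hairpin had been induced and in the KO-labelled tumors. In sh4 it went from 209, 211 and 192 CPM with DMSO to 122, 119 and 133 CPM with doxycycline, and in shAMB from 221, 223 and 217 CPM to 145, 153 and 144 CPM. Neither pair of groups overlapped, and the EV libraries stayed between 208 and 219 CPM in both media. The log2 fold changes were -0.71 with sh4 (1.63-fold lower, SE 0.0476, adjusted p = 1.07e-08) and -0.58 with shAMB (1.49-fold lower, SE 0.0475, adjusted p = 4.13e-08), against 0.01 in EV. Both hairpins differed from EV, by -0.71 (adjusted p = 1.13e-06) and -0.58 (adjusted p = 4.08e-06), and a difference between the hairpins did not pass (-0.13, 95% interval -0.27 to 0.01, adjusted p = 0.0988), although it did under 3 of 20 alternatives (sh4 DMSO replicate 3 or sh4 dox replicate 3 left out, and with the GC trend removed at -0.22, adjusted p = 0.0143). In the tumors the control group held 504, 455, 585 and 488 CPM and the KO-labelled group 448, 301, 358 and 248 CPM, without overlap (-0.58, SE 0.164, adjusted p = 0.0153). That call was lost without KO replicate 2 (-0.53, adjusted p = 0.0515) and with limma on TPM (-0.58, adjusted p = 0.299). The hairpin calls held under all 14 alternatives for each line. DDC shares 3.70% of its annotated exon bases with the antisense gene DDC-AS1, and whether counting used the strand is not given in the sources used here.

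DBH had the widest spread inside groups after TH and passed the threshold in no comparison. Its levels were 364, 274 and 197 CPM in sh4 with DMSO and 197, 233 and 490 CPM with doxycycline, and the groups overlapped (0.14, 95% interval -0.50 to 0.78, adjusted p = 0.740). In shAMB they were 160, 126 and 168 CPM with DMSO and 161, 204 and 240 CPM with doxycycline (0.42, 95% interval -0.23 to 1.06, adjusted p = 0.235). Fitted on the libraries of the line alone, the shAMB change passed at 0.34 (adjusted p = 0.0400). With the GC trend removed DBH was higher with sh4 (0.37, adjusted p = 0.00248) and lower with shAMB (-0.39, adjusted p = 0.00142), the latter a change of sign. In the tumors DBH was at 282, 487, 646 and 526 CPM in the control group and 614, 289, 315 and 143 CPM in the KO-labelled group (-0.51, adjusted p = 0.297). Without KO replicate 1, the tumor with the highest GC contrast, the change was -0.97 (adjusted p = 0.0226), and with the GC trend removed in all 8 it was -0.69 (adjusted p = 0.00889).

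TH and DBH followed each other closely from library to library while their ratio differed between groups, a pattern chosen for description after the values had been seen. Inside groups the SD of log2 CPM was 0.521 for TH and 0.413 for DBH in culture, but only 0.123 for their ratio, the tightest of the 28 pairs of tested members relative to the spread of the single genes. The tumors gave 0.920, 0.707 and 0.253, again the tightest of 28 pairs. With the GC trend removed the SDs in culture fell to 0.163, 0.130 and 0.0608, still the tightest pair, and those in the tumors to 0.434, 0.338 and 0.160, where DDC and DBH became the tightest pair and TH and DBH the second. Per kilobase, DBH exceeded TH by 15.9, 14.4 and 13.5 times in the EV libraries with DMSO, 14.5, 14.4 and 14 times in EV with doxycycline, 10.6, 11.8 and 12.7 times in sh4 with DMSO and 12.4, 13.4 and 13.7 times in shAMB with DMSO. The ratio was 36.8, 39.8 and 29.3 in sh4 with doxycycline and 3.43, 3.34 and 3.28 in shAMB with doxycycline, so that the induced hairpin groups lay on either side of all 12 other culture libraries. In the tumors it was 16.7, 12.4, 11.8 and 15.6 in the control group and 6.81, 8.43, 6.70 and 9.74 in the KO-labelled group, which did not overlap. No test is given for the ratio.

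**Figure D4:**
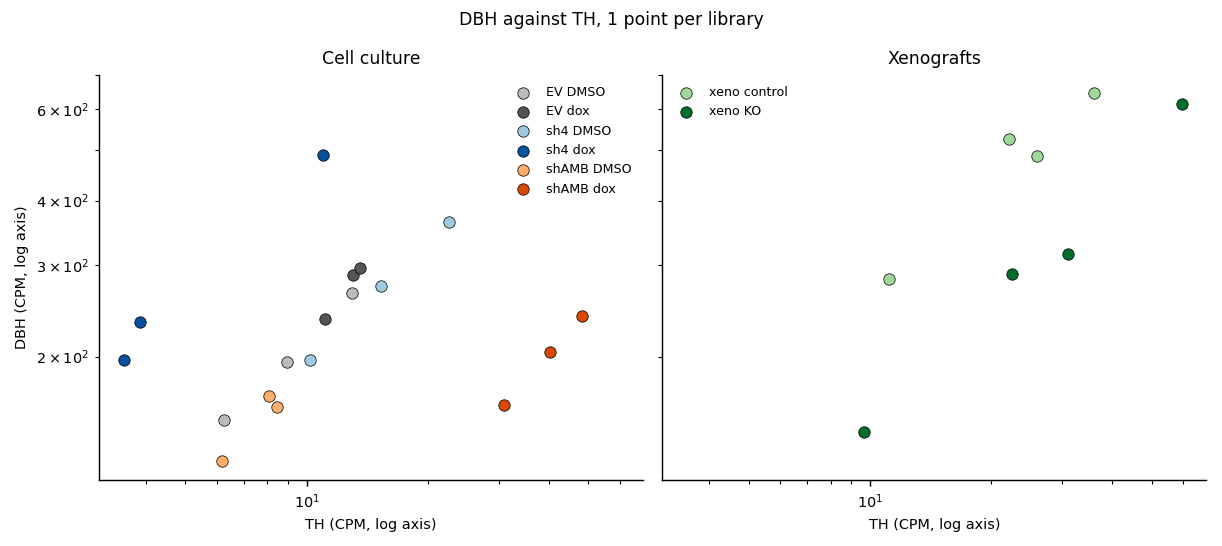
DBH against TH in CPM on log axes, with 1 point per library, for cell culture (left) and tumors (right). Within a group the points climb together, and the sh4 doxycycline libraries (ratios per kb of 29.3 to 39.8) and the shAMB doxycycline libraries (3.28 to 3.43) stand to the upper left and lower right of the rest.

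GCH1, which feeds the TH cofactor, was called higher in the tumors, and its changes in culture were smaller. With sh4 it went from 30.2, 32.7 and 33.3 CPM to 29.1, 28.2 and 23.8 CPM, without overlap but with a narrow gap. The change of -0.25 (SE 0.0724, adjusted p = 0.0127) lost its call with limma on TPM, with the gene length trend removed and with only the libraries of the line fitted. EV also went from 35.0, 33.2 and 31.4 CPM to 28.7, 30.2 and 30.9 CPM, without overlap or a call (-0.15), and the sh4 effect did not differ past the threshold from it (-0.10, adjusted p = 0.483). A change with shAMB was not detected (40.5, 42.5 and 38.7 CPM with DMSO, 44.7, 43.3 and 41.1 CPM with doxycycline, 0.08, adjusted p = 0.310), although 0.18 passed with the GC trend removed (adjusted p = 0.000869) and 0.27 with limma on TPM (adjusted p = 0.00495). Relative to EV the shAMB effect on GCH1 was 0.23 (adjusted p = 0.0737), and it passed under 2 of 20 alternatives. In the tumors GCH1 rose from 47.1, 42.7, 35.1 and 46.7 CPM to 63.5, 80.7, 88.1 and 103 CPM. Every KO-labelled tumor lay above every control tumor, and the log2 fold change of 0.97 (1.95-fold higher, SE 0.147, adjusted p = 0.000495) held under all 15 alternatives. PNMT, the adrenaline-forming enzyme, was at 4, 0 and 3 counts in shAMB with DMSO and 11, 17 and 7 counts with doxycycline. Without the filter its fitted change there was 1.89 (adjusted p = 0.0194) on these few reads, beside 0.96 in EV, and the difference of shAMB from EV did not pass (0.94, adjusted p = 0.579). PNMT lies at percentile 97.7 of GC content, so the GC contrast of the shAMB libraries cannot be told apart from induction here either. In the tumors it had 3, 13, 5 and 6 counts in the control group and 17, 12, 8 and 9 counts in the KO-labelled group, where a change did not pass (0.51, adjusted p = 0.528). The same held with sh4 (0.68, adjusted p = 0.478).

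The vesicular transporters did not move as a pair. SLC18A1 went from 15.3, 14.9 and 13.8 CPM to 11.9, 11.7 and 11.7 CPM with sh4 and from 16.9, 15.8 and 15.6 CPM to 6.72, 6.64 and 7.25 CPM with shAMB. Neither pair overlapped, and the fall with shAMB was the larger: -0.32 (SE 0.0651, adjusted p = 0.000931) and -1.23 (2.34-fold lower, SE 0.0668, adjusted p = 3.69e-10), a difference of 0.91 for sh4 minus shAMB (adjusted p = 8.24e-07). The sh4 call was lost with limma on TPM (-0.13, adjusted p = 0.111). EV libraries were between 13.6 and 15.3 CPM in both media, and both hairpins differed from EV (-0.38, adjusted p = 0.00532, and -1.29, adjusted p = 2.93e-08). In the tumors SLC18A1 was at 40.5, 32.2, 34.6 and 32.7 CPM in the control group and 43.1, 14.7, 21.0 and 19.0 CPM in the KO-labelled group, so that 3 of the 4 lay below every control and KO replicate 1 above. The change of -0.51 did not pass (adjusted p = 0.161), and without KO replicate 1 it was -0.94 (adjusted p = 0.000418).

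SLC18A2 separated the lines before any hairpin was induced. With DMSO it was at 182, 187 and 198 CPM in sh4, against 270, 256 and 251 CPM in EV and 227, 232 and 226 CPM in shAMB. The sh4 line was thus lower than EV at baseline (-0.46, SE 0.0543, adjusted p = 0.000254), and so was MAOA there (-0.28, adjusted p = 0.0208), giving 2 of 8 members past the threshold where 1.12% of all genes passed (0.597% higher, 0.523% lower). RUNX1T1 itself was lower in the same comparison (-0.29, adjusted p = 0.0144). That call was lost without EV DMSO replicate 1, without sh4 DMSO replicate 1 or 2, and with only the libraries of the comparison fitted (-0.29, adjusted p = 0.217). For shAMB against EV with DMSO edgeR called 0 of 8 members, where 1.52% of all genes passed (1.11% higher, 0.416% lower), 4 members had an unadjusted p under 0.05, DESeq2 called 2 and limma on TPM 0. Doxycycline lowered SLC18A2 further in sh4, to 152, 147 and 129 CPM, without overlap (-0.41, SE 0.0544, adjusted p = 2.10e-05). In shAMB it reached 262, 255 and 244 CPM (0.15, SE 0.0541, adjusted p = 0.0219), and this small rise lost its call under 9 of 14 alternatives. In the tumors SLC18A2 went from 149, 134, 140 and 139 CPM to 150, 223, 219 and 198 CPM, and 3 of 4 KO-labelled tumors stood well clear of the control range (0.49, SE 0.119, adjusted p = 0.00733). Limma on TPM gave the same size of change without a call (0.49, adjusted p = 0.351). The overlap of SLC18A2 with other genes limits these values. Of its annotated exon bases 56.4% lie under genes of the opposite strand (SLC18A2-AS1, PDZD8 and ENSG00000277879), so its counts are uncertain if strand was not used.

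SLC6A2, the noradrenaline transporter, had the smallest spread inside culture groups of the tested members (SD of log2 CPM 0.0426). With the GC trend removed its SD was 0.0387, above those of SLC18A2 (0.0178) and MAOA (0.0296). Its 9 DMSO libraries lay between 113 and 129 CPM, and with doxycycline it was at 126, 126 and 125 CPM in EV, 127, 132 and 143 CPM in sh4 and 108, 107 and 113 CPM in shAMB. The sh4 doxycycline libraries stood above their DMSO range of 116 to 121 CPM (0.18, 1.13-fold higher, SE 0.0406, adjusted p = 0.00206), and SLC6A2 was the only one of the 8 members called higher with that hairpin. The call was lost with only the libraries of the line fitted (0.18, adjusted p = 0.0704). The shAMB change of -0.07 did not pass (adjusted p = 0.147) but did under 6 of 14 alternatives, with values between -0.21 and -0.11, while limma on TPM gave 0.08 without a call. The hairpin effects differed by 0.25 (sh4 minus shAMB, adjusted p = 0.00167). In the tumors SLC6A2 fell from 48.7, 55.4, 47.1 and 49.2 CPM to 46.4, 34.1, 31.6 and 33.8 CPM, every KO-labelled tumor below every control although KO replicate 1 came close (-0.46, 1.37-fold lower, SE 0.125, adjusted p = 0.0133). This tumor call was lost with limma on TPM (-0.39, adjusted p = 0.467). Of its annotated exon bases 28.6% are shared with ENSG00000278928 on the same strand.

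MAOA had the lowest log2 fold change of the 8 tested members with shAMB and in the tumors, but not with sh4. With shAMB it went from 332, 343 and 335 CPM to 105, 106 and 95.1 CPM (-1.72, 3.30-fold lower, SE 0.0571, adjusted p = 1.38e-12). With sh4 it went from 267, 292 and 292 CPM to 246, 243 and 214 CPM (-0.27, 1.21-fold lower, SE 0.0554, adjusted p = 0.000917). Neither pair overlapped, and the 2 hairpin effects differed by 1.45 (sh4 minus shAMB, SE 0.0789, adjusted p = 9.37e-10). The EV line went the other way, from 352, 347 and 331 CPM to 394, 397 and 401 CPM, without a call (adjusted p = 0.482), and relative to EV the hairpin effects were -0.48 (adjusted p = 0.000234) and -1.93 (adjusted p = 5.01e-11). In the tumors MAOA fell from 500, 337, 456 and 413 CPM to 232, 203, 220 and 189 CPM, every KO-labelled tumor below every control (-1.01, 2.02-fold lower, SE 0.125, adjusted p = 0.000127). The shAMB and tumor calls held under every alternative run, 14 and 15, and the sh4 call under 13 of 14, limma on TPM being the exception (-0.10, adjusted p = 0.146).

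Over the 8 tested members the interaction with EV passed for 6 with sh4, where 32.6% of all genes passed (17.8% higher, 14.7% lower). Without sh4 dox replicate 3 the number of all genes passing there moved from 4856 to 7557, and 6 members passed whichever 1 of the 12 libraries was left out. It passed for 5 with shAMB, where 45.5% did (23.7% higher, 21.7% lower), and the hairpins differed from each other for 6, where 60.9% did (27.8% higher, 33.1% lower). Of these 6, TH (-1.40 and 2.39), SLC18A2 (-0.41 and 0.15), GCH1 (-0.25 and 0.08) and SLC6A2 (0.18 and -0.07) had opposite signs with sh4 and shAMB, although the shAMB values of GCH1 and SLC6A2 did not pass and that of SLC18A2 did so under 5 of 14 alternatives. MAOA and SLC18A1 were lower with both, more so with shAMB. The 3 hairpin contrasts share the libraries of the same lines, so their values are given side by side and are not independent of each other.

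The genes whose log2 CPM followed each member most closely over the 18 culture libraries were named by Pearson's r, as a description without a test. The libraries share 3 lines and the same GC contrasts, and the agreement in the 8 tumors is given beside it. For TH these were GPR162 (r = 1.00 to 2 decimals in culture, 0.65 in the tumors) and SUN2 (0.99 and 0.86), whose transcripts lie at percentiles 91.2 and 90 of GC content. The second closest to DBH was DVL3 (0.98 and 0.77). For DDC they were UNC119B (0.98 and 0.49) and DCLK3 (0.98 and 0.72), and for GCH1 FERMT2 (0.98 and 0.80) and VPS37A (0.97 and 0.71). SLC18A1 was closest to UBE2D4 (0.99 and 0.65) and HMP19 (0.99 and 0.64), and MAOA to RPL30 (0.98 and 0.98) and UBE2L3 (0.98 and 0.96). SLC18A2 was closest to C10orf76 (0.96, and -0.42 in the tumors) and CDC14A (0.96 and -0.27), so its nearest genes in culture ran against it in the tumors. SLC6A2 had the loosest neighbours, GNL3L (0.92 and 0.83) and JADE2 (0.91 and 0.65).

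The wider pathway was read from 61 further genes in 5 lists, of which 48 were tested in culture and 49 in the tumors. Together 1 passed in EV (SLC18B1, the vesicular polyamine transporter, -0.62, adjusted p = 0.000156), 22 with sh4 (13 higher, 9 lower), 38 with shAMB (21 higher, 17 lower) and 26 in the tumors (14 higher, 12 lower). Over all genes tested 0.0939%, 40.9%, 66.0% and 41.1% passed in these comparisons. With the GC trend removed the shAMB split turned to 14 higher and 22 lower, and the other counts were 29 with sh4 (19 higher, 10 lower) and 32 in the tumors (16 higher, 16 lower). Calls over all genes rose with that removal too, from 6091 to 8200 with sh4, from 9840 to 10535 with shAMB and from 6555 to 8318 in the tumors. With shAMB they were then 5403 higher and 5132 lower. Relative to EV, 17 of the 48 list genes tested in culture passed with sh4 (10 higher, 7 lower). With shAMB 26 did (11 higher, 15 lower), so the larger side was then the lower one. Of all genes 32.6% and 45.5% passed relative to EV. The culture changes of list genes given below are doxycycline against DMSO within a line.

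Of 13 genes of cofactor supply and enzyme support, 2 were higher and 9 lower with shAMB, 1 higher and 5 lower in the tumors, and 3 higher and 2 lower with sh4. Of all genes 66.0%, 41.1% and 40.9% passed in these comparisons. Relative to EV, 0 were higher and 8 lower with shAMB, and 2 higher and 2 lower with sh4. SPR, which completes tetrahydrobiopterin synthesis, fell by 1.17 on the log2 scale with shAMB and by 1.10 in the tumors. PCBD1, which recycles the cofactor, was lower in all of these (-0.53 with sh4, -0.71 with shAMB and -0.72 in the tumors), and QDPR, the dihydropteridine reductase, by -0.79 with sh4. CYB561, a vesicle cytochrome whose electrons regenerate the ascorbate that DBH uses, rose by 0.61 with sh4 and fell with shAMB (-0.37) and in the tumors (-1.03). PAM, which amidates peptides in secretory vesicles, rose in all of these (0.26, 0.19 and 0.34). GCHFR, the feedback regulator of GCH1, rose with shAMB on 4 to 25 counts a library (1.46, adjusted p = 0.0123), a call that was lost with the GC trend removed (0.59, adjusted p = 0.160).

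Degrading and conjugating enzymes were lower with sh4 in 4 of 8 cases and higher in 0, among them RNLS (-1.58), SULT1A1 (-0.93), AKR1A1 (-0.62) and AKR1B1 (-0.35). With shAMB 3 were higher and 3 lower. ALDH2, which oxidises the aldehydes that MAOA forms, fell (-1.27), as did AKR1B1 (-1.60), which reduces them, and RNLS (-1.76). In the tumors AKR1B1 (-1.70) and ALDH2 (-1.28) fell and SULT1A1, a phenol sulfotransferase with near-identical copies that share its reads, rose (1.11). Of all genes 40.9% passed with sh4, 66.0% with shAMB and 41.1% in the tumors. Relative to EV, 0 of these enzymes were higher and 3 lower with sh4, and 1 was higher and 2 lower with shAMB.

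Among 12 other amine, amino acid and vesicular transporters, 8 were tested. SLC17A9, the vesicular nucleotide transporter, rose with sh4 (1.43), shAMB (3.23) and in the tumors (2.84), from a low start of 0.381 to 1.02 CPM. SLC18B1 fell in all of these (-0.22, -1.35 and -1.03), as it did in EV. SLC18A3, the vesicular acetylcholine transporter, rose with shAMB (2.64, and 1.51 with the GC trend removed) and in the tumors (1.20), and SLC6A4, the serotonin transporter, rose in both as well (1.51 and 1.72). Summed markers of cholinergic neurons were at most 11.9 CPM and those of serotonergic cells at most 4.52 CPM in any library.

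Only 5 of 14 adrenergic and dopamine receptor genes were tested in culture and 7 in the tumors, the rest being too low. ADRA2A, an alpha-2 receptor that restrains noradrenaline release, was lower with shAMB (-0.76) and in the tumors (-0.88), and ADRA1B was higher in both (2.44 and 0.96). ADRA2B rose (1.87) and ADRA1D fell (-1.32) in the tumors. ADRA2C passed with shAMB at 1.11, and its sign turned with the GC trend removed (-0.23, adjusted p = 0.239). In total 3 receptors were higher and 1 lower with shAMB, and 3 were higher and 3 lower in the tumors. Of all genes 66.0% and 41.1% passed in these comparisons. Relative to EV, 1 receptor was higher and 1 lower with shAMB.

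Of the 14 transcriptional regulators of noradrenergic genes, 8 rose and 2 fell with sh4, 8 rose and 3 fell with shAMB, and 6 rose and 1 fell in the tumors. With the GC trend removed the shAMB split was 5 higher and 5 lower. Of all genes 40.9% passed with sh4, 66.0% with shAMB and 41.1% in the tumors. Relative to EV, 6 regulators were higher and 2 lower with sh4, and 6 were higher and 3 lower with shAMB. EGR1, an immediate early factor, went from a mean of 2.08 CPM to 55.9 CPM with shAMB (4.75, adjusted p = 2.22e-14), from 2.22 to 3.06 CPM with sh4 (0.46) and from 2.71 to 21.0 CPM in the tumors (2.96, adjusted p = 0.000505). NR4A2, an orphan nuclear receptor of dopaminergic neurons, led with sh4 (1.47) and rose in the tumors (0.84). INSM1 rose with sh4 (0.69) and in the tumors (1.02), as did ISL1 in the tumors (0.93). PHOX2A, the homeodomain factor of noradrenergic neurons, rose with shAMB (1.56, and 0.48 with the GC trend removed), and NR4A1 rose there too (1.10, and 0.37). HAND2 (-0.55, and -1.03 with the GC trend removed) and TFAP2B (-0.63, and -1.17) were among those lower with shAMB and were named after their values had been seen. GATA2, past the threshold at 0.45 with shAMB, changed sign with the GC trend removed (-0.66, adjusted p = 0.000651) and was named for that after its values had been seen.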

How the data were processed

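RNA sequencing libraries were prepared, per the labels, from total RNA with a stranded kit and sequenced as paired reads, although polyA RNA is the molecule entered in the labels. The submitters' processing notes name STAR, SAMtools, RSEM and hg38, without roles. Annotation and use of strand in counting are not given in the sources used here. The authors deposited expected counts estimated by RSEM, not normalized, and TPM values already scaled for length and depth, in separate tables for culture and xenografts, and a gene length in bases in the culture count table. In the culture tables Neg was taken to mean DMSO and Pos doxycycline, on no other evidence than the words, and every culture direction rests on this. Groups came only from the sample labels.

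Expected counts were rounded and tested with edgeR 4.0.16 (quasi-likelihood F test, two-sided, TMM factors, filterByExpr) in R 4.3.3: 18 culture libraries in 1 fit with a mean per group, 8 xenograft libraries in another. Benjamini-Hochberg adjustment ran over all 14905 or 15960 genes tested, with a threshold of 0.05. Scripts were tested on simulated data with known changes. Columns of per-sample values left unused numbered 0. Replicates differed by more than sampling noise (chi-square per degree of freedom of at least 1.80), and each library counted once. Such a difference cannot show that the replicates were separate cultures, since repeated preparations of the same RNA can differ too. Depth behind the values is 35115915 to 62378060 expected counts per library. Counting error limits the lowest genes, such as PNMT and GCHFR, and reads are not independent molecules.

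Alternatives were RLE factors, no filter, DESeq2 1.42.0, a replicate block, limma 3.58.1 on log2(TPM + 1), removal of each library's lowess trend on gene length or (added after seeing the data) on transcript GC content, only the libraries of the comparison, and leaving out each library. GC content was the median over a symbol's GENCODE transcripts and was matched for 91.1% of tested culture and 89.9% of tested xenograft genes. Gene positions and promoters came from RefSeq (GRCh38.p14). Of the gene symbols, 25378 matched a RefSeq symbol or synonym.

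The members and lists were chosen with earlier results of these data known. All members are named throughout. From each list, genes past the threshold with the largest changes are named, up to 4 a comparison, and some genes are not reported here. For each member the 2 genes of highest Pearson's r are named. Figures were drawn with matplotlib.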

Additional observations from a re-analysis of the deposited data

Results flagged for a closer look

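Among the xenografts, where chance alone singles out about 1 in 20 groups, the highest library stood apart from the other 3 of its group for PNMT in the control tumors (0.294 CPM) and for SLC6A2 in the KO-labelled tumors (46.4 CPM, KO replicate 1).

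The doxycycline effect differed between lines by a tested interaction for 17 member and line pairs (edgeR, adjusted p under 0.05 in each, log2 scale). For sh4 minus EV these were TH (-1.83), DDC (-0.71), MAOA (-0.48), SLC18A1 (-0.38), SLC18A2 (-0.28) and SLC6A2 (0.21). For shAMB minus EV they were TH (1.97), MAOA (-1.93), SLC18A1 (-1.29), DDC (-0.58) and SLC18A2 (0.28). For sh4 minus shAMB they were TH (-3.79), MAOA (1.45), SLC18A1 (0.91), SLC18A2 (-0.56), GCH1 (-0.33) and SLC6A2 (0.25). The values for TH lie beside a GC contrast that differed between the same groups, and with the GC trend removed they were -1.24, 1.18 and -2.42, each past the threshold. Calls were lost in sh4 minus EV for SLC18A1 (-0.15, adjusted p = 0.215) and SLC18A2 (-0.07, adjusted p = 0.548) with limma on TPM, in shAMB minus EV for SLC18A2 with RLE factors and with the gene length trend removed, and in sh4 minus shAMB for GCH1 with RLE factors, DESeq2 and the gene length trend removed.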

How the results depend on the processing

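Of the members' values under alternatives other than leaving out a library, 517 kept their direction and side of the threshold, 23 lost the call, 26 gained it and 2 changed sign. When libraries were left out, 579 kept it, 9 lost it and 4 gained it. Sign changes of values past the threshold in neither fit (328 over members and the list genes reported) are not counted as such. With the GC trend removed, the number of members past the threshold was 1 in EV, 8 with shAMB and 3 for shAMB against EV with DMSO. Of all 14905 genes tested, 53, 10535 and 858 passed in these fits. Limma on TPM gave 4 members with sh4 and 2 in the tumors, where small non-coding and ribosomal RNA took 70.9% to 84.6% of TPM. With only the libraries of the comparison fitted there were 4 with sh4 and 1 for sh4 against EV with DMSO. DESeq2 gave 2 for shAMB against EV with DMSO. Leaving out a library gave 1 to 2 members for sh4 against EV with DMSO (MAOA was lost without EV DMSO replicate 1 or 2, or sh4 DMSO replicate 1 or 2), 4 to 5 with shAMB and 4 to 7 in the tumors, where 7 was the count without KO replicate 1.

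Signs turned with the GC trend removed for DBH (-0.39), ADRA2C (-0.23), DRD2 (-0.41), GATA2 (-0.66), GATA3 (-0.82), SLC29A4 (-0.50) and SLC7A5 (-0.65) with shAMB and for GATA3 (0.068) with sh4. The same held in sh4 minus EV for GATA2 (0.70), GATA3 (0.19), PHOX2A (0.38) and SLC7A5 (0.17), in shAMB minus EV for SLC29A4 (-0.59), and in sh4 minus shAMB for DBH (0.76), ADRA2C (0.28), DRD2 (0.59), GATA2 (1.12), GATA3 (0.89), INSM1 (1.01), SLC29A4 (0.25) and SLC3A2 (0.0363). The cause was not tested.

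Over all genes, calls moved from 14 to 53 in EV and from 167 to 622 (sh4) and 227 to 858 (shAMB) against EV with DMSO with the GC trend removed, to 351 for sh4 with DESeq2, to 6, 3727, 23 and 85 (EV, sh4, sh4 and shAMB against EV) with only the libraries of the comparison, and from 6555 to 1968 in the tumors with limma on TPM. Left-out libraries gave 7 to 14 calls in EV, 3753 to 7557 for sh4 minus EV (7557 without sh4 dox replicate 3), 75 to 269 for sh4 and 125 to 188 for shAMB against EV with DMSO. TPM moved the median log2 change over all genes by 0.13 with sh4 and 0.11 with shAMB, and the share of calls that were higher from 56.0% to 80.7%, from 56.9% to 73.0% and, in the tumors, from 51.6% to 72.8%. The gene length trend moved that median by -0.11 with shAMB.

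Replicate numbers did not pair the samples: deviations of same-numbered libraries correlated over genes between -0.603 and 0.374. With the replicate number as a block, SLC18A1 passed in the tumors (-0.63, adjusted p = 0.0438), and no other call of a member in the 4 treatment comparisons changed.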
